A study of Mus musculus with 6 samples.

Results

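The nuclear genome encodes most of the protein subunits of the mitochondrial respiratory chain and of ATP synthase, and these genes were read here in cultured mouse neural stem cells (NSCs) with and without the microRNA gene Mir151. Members were the rows of the deposited count table whose mouse symbol starts with Nduf and a complex I subunit letter, is Sdha to Sdhd or Cyc1, or starts with Uqcr, Cox4 to Cox8 or Atp5. Of 94 rows that matched, 7 with pseudogene names and 4 with a pseudogene biotype were set aside. This left 83 genes of 32493 in the table: 37 of complex I, 4 of complex II, 9 of complex III, 16 of complex IV and 17 of complex V. The symbol rule used no measured value, although the members were chosen with earlier results of these data known. Of the 83 genes, 79 passed the filter on low counts, and Ndufa4l2 (13 counts at most in a library), Cox4i2 (19), Cox6a2 (14) and Cox8b (4) did not. Cox7b2 and Cox8c were not analysed here.

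In oxidative phosphorylation, complexes I and II pass electrons from NADH and succinate to ubiquinone, complex III passes them on to cytochrome c, and complex IV hands them to oxygen. Complexes I, III and IV pump protons across the inner mitochondrial membrane, and complex V lets them flow back to make ATP. The mitochondrial genome encodes some subunits of complexes I, IV and V, only cytochrome b of complex III and none of complex II. Both genomes thus have to supply parts. Neural stem cells are known to lean on glycolysis and to raise oxidative metabolism as they differentiate.

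The cells were NSCs of E14.5 mouse embryos, dissected around the lateral ventricles and expanded in culture. In the cko group, both floxed Mir151 alleles (fl/fl) met Cre driven by Emx1-IRES-Cre, a driver active in the dorsal telencephalon, so cells of other origin would keep the microRNA. The group labelled wt consisted, by the study's methods, of Cre-negative littermates that carry the same fl/fl alleles, and all mice had a C57BL/6J background. The labels give 3 wt and 3 cko samples, and nothing in them says which came from separate animals or litters, so a p-value here measures only the spread between these libraries. The column of wt replicate 2 equalled the mean of wt replicates 1 and 3, rounded up, in all 32493 genes. It was left out, and each comparison rests on wt_1 and wt_3 against cko_1, cko_2 and cko_3.

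Total counts ran from 17883796 to 23335736 a library. Levels are CPM, that is, counts scaled to a common library total, with TMM factors of 0.990 to 1.01, and 3 counts correspond to 0.129 to 0.168 CPM. Mir151 has no row in the table, so the deletion itself was not analysed here. NSC markers were abundant in every library (8 genes, summed level 7020 to 8920 CPM), while those of microglia, of endothelial and mural cells and of red cells summed to at most 2.14 CPM, with Cx3cr1, Tmem119, Cdh5, Hbb-bs and Hba-a1 at 0. Astrocyte markers summed to 2020 and 1040 CPM in wt and 548 to 960 in cko, and 4 proliferation markers to 625 and 685 CPM in wt and 1320 to 1740 in cko. The edgeR test called 3 of 6 astrocyte markers lower and all 4 proliferation markers higher. Among the 8 NSC markers, 2 were called higher and 1 lower. Their summed level was 7990 and 7020 CPM in wt and 8210 to 8920 CPM in cko. Of 8 oligodendrocyte lineage markers, which summed to 2750 and 3380 CPM in wt and 3220 to 3510 in cko, 2 were called higher and 4 lower, and of 6 tested neuron markers 2 higher and 1 lower. The part of these differences in the results below was not tested. In bulk samples like these, fewer cells of a type and less RNA per cell cannot be told apart.

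Most subunits differed little between genotypes. With edgeR's quasi-likelihood test, 2 of the 79 tested genes were higher in cko (Ndufa4 and Ndufa12) and 1 was lower (Ndufv3), which is 3.80% of the members beside 16.4% of all 16710 genes tested. By direction, 7.86% of all genes were called higher and 8.57% lower. At an unadjusted p under 0.05 there were 16 subunits on the higher side (20.3%, beside 15.9% of all genes) and 3 on the lower side (3.80%, beside 16.7%). The median log2 fold change of the 79 was 0.09, beside -0.0026 over all genes, with 50 values above 0 and 29 below. All but 3 log2 fold changes (76 of 79) lay within 0.5 of 0, with standard errors of 0.07 to 0.46 and a median of 0.11. The 3 cko libraries all lay above both wt libraries in 25 subunits (31.6%, beside 25.4% of all genes) and below both in 5 (6.33%, beside 24.2%).

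**Figure D1:**
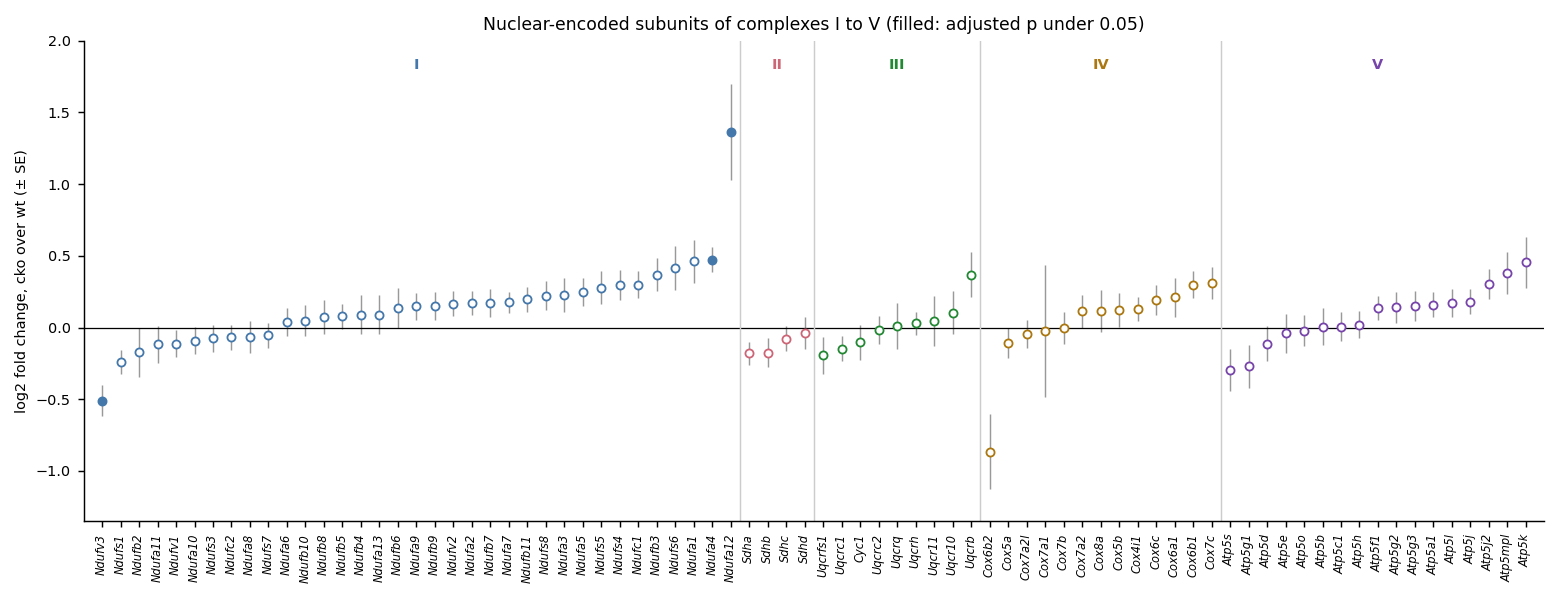
Log2 fold change of cko over wt for 78 of the 79 tested subunits, grouped by complex and sorted within it, with the standard error from the edgeR fit as bars (2 wt and 3 cko libraries). Filled points are the 3 genes with an adjusted p under 0.05: Ndufv3 on the left, and Ndufa4 and Ndufa12 at the right end of complex I.

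Ndufa4 encodes a small protein first assigned to complex I and later placed in complex IV. It is counted under complex I here, by its symbol. Its gene lies at chr6:11900292-11907497 (GRCm38). It read 83.8 and 92.4 CPM in wt_1 and wt_3, and 130.3, 115.4 and 120.6 CPM in cko_1, cko_2 and cko_3. Every cko library was above both wt libraries, and the log2 fold change was 0.47 (SE 0.087, edgeR adjusted p = 0.0131). Without cko_2 or without cko_3 the gene missed the threshold, at edgeR adjusted p = 0.0565 and 0.0731, with log2 fold changes of 0.50 and 0.47. In these fits the higher calls over all genes went from 1314 to 317 and 336. Its homolog Ndufa4l2, known as a hypoxia-induced gene, was close to undetected at 0.17 to 0.57 CPM. The RNA levels of this pair could therefore not be compared between genotypes.

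Ndufv3 encodes an accessory protein of the flavoprotein part of complex I, where NADH is oxidised. The transcript used for its length has 1404 coding bases. The gene, at chr17:31520115-31531331, read 62.8 and 75.7 CPM in wt and 52.8, 45.6 and 47.6 CPM in cko. No cko library reached the lower wt library, and the gene fell by 0.51 on the log2 scale (SE 0.11, edgeR adjusted p = 0.0210). Without cko_2 or cko_3 the edgeR adjusted p was 0.0993 and 0.0974, with log2 fold changes of -0.47 and -0.50. In these fits the lower calls over all genes went from 1432 to 416 and 457. No transcript of another gene shared 100 bases at 95% identity with Ndufv3 or with Ndufa4.

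Ndufa12, an accessory subunit of complex I, had the highest log2 fold change of all members. It lies at chr10:94198720-94221443 and read 13.5 and 16.5 CPM in wt, and 50.8, 21.9 and 43.6 CPM in cko. The cko libraries were thus unequal: cko_2 stood much nearer to wt than cko_1 and cko_3 did. The log2 fold change was 1.37 (SE 0.33, edgeR adjusted p = 0.0332). This was also the only member beyond the study's own cut of 0.9 on the log2 scale at an unadjusted p under 0.01. The call was lost without cko_1, cko_3 or wt_1, with adjusted p values of 0.0930, 0.120 and 0.0651.

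A processed copy of Ndufa12 bears on this value. Gm15920 lies at chr5:130188395-130188796 and its 402 bases match the Ndufa12 transcript from transcript base 127 to base 528, that is, through all 4 exons and up to the stop codon, with 2 differences (99.5% identity). The longest stretch with no difference is 278 bases. The differences are A135G and T414C, counted from 1 at the first base of the Ndufa12 start codon, with the base of Ndufa12 first and that of Gm15920 last. The stretches around both are shown because only a read that covers one of these positions, or that runs past the ends of the copy, can separate the gene from the copy. Both are coding sequence, from GENCODE M21 on GRCm38, plus strand, with the differing base in capitals. The Ndufa12 windows are chr10:94199986-94200010 in exon 2 and chr10:94220825-94220849 in exon 4.
Ndufa12 at base 135: agacaaatatggAaataaatactac
Gm15920 at the same base: agacaaatatggGaataaatactac
Ndufa12 at base 414: tcatgaatgggtTccaccttcgaca
Gm15920 at the same base: tcatgaatgggtCccaccttcgaca

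The counts of the copy ran opposite to those of the gene. Gm15920 read 17.3 and 24.8 CPM in wt_1 and wt_3, and 7.50, 18.6 and 8.82 CPM in cko_1, cko_2 and cko_3. The cko library with the least Ndufa12, cko_2, was the one with the most Gm15920. Of all reads given to either, the copy took 56.2% and 60.0% in wt and 12.9%, 45.9% and 16.8% in cko. Added together, gene and copy read 30.8 and 41.4 CPM in wt, and 58.3, 40.5 and 52.4 CPM in cko. On this sum the groups overlapped, since cko_2 lay below wt_3, and the log2 fold change was 0.48 (SE 0.18, edgeR adjusted p = 0.113). The Ndufa12 call thus ended when the counts of the copy were added, a setting chosen after the values were seen. How the reads were shared out between near-identical genes is not given in the sources used here, and whether Gm15920 is itself transcribed was not tested.

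**Figure D2:**
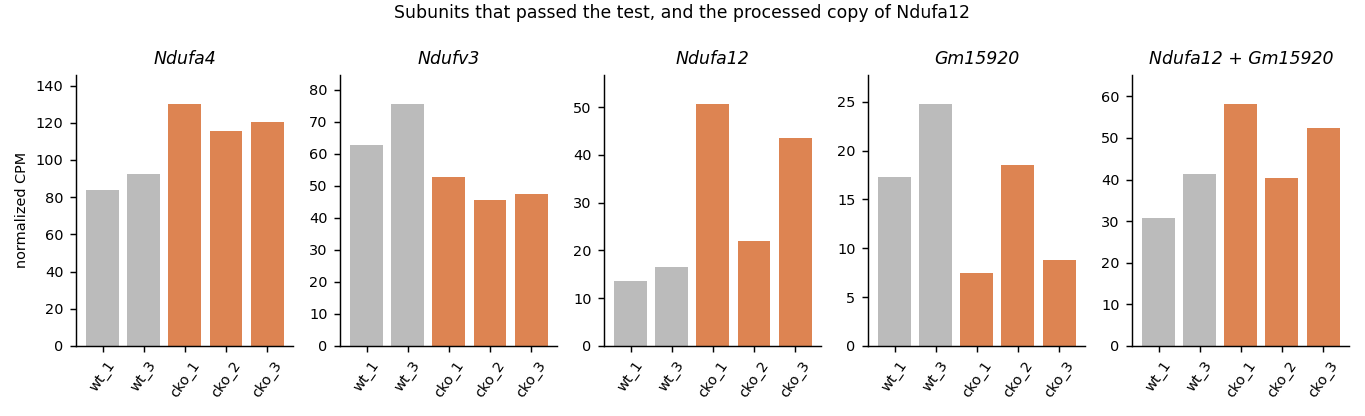
Normalized CPM in each library (grey wt, orange cko, 1 bar per library, no error bar) for Ndufa4, Ndufv3, Ndufa12, its processed copy Gm15920, and the sum of Ndufa12 and Gm15920. Ndufa12 and Gm15920 run in opposite directions, and in their sum cko_2 (40.5 CPM) lies below wt_3 (41.4 CPM).

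Other members have such copies too. At 95% identity over 100 bases or more, 36 of 83 members matched a transcript of another gene, and in 33 of them that gene held counts. Some of these matches are overlapping neighbours or repeats, and 20 members had annotated pseudogenes among them, 33 in all. The copies reached over 10% of the summed counts in 6 members: Ndufa12, Atp5l, Atp5g1, Atp5h, Cox7c and Uqcrb. With all 33 added to their members before the fit, Ndufa4 and Ndufv3 were still called and Ndufa12 was the one call lost.

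The 2 wt libraries set the scale for every other difference. wt_3 read higher than wt_1 in 78 of the 79 subunits (98.7%, beside 49.4% of all genes), by a median of 0.28 on the log2 scale, and Cox7a1, near the detection floor, was the exception. Summed over the 79 genes, the level was 8201 CPM in wt_1 and 9992 CPM in wt_3, and 9616, 9390 and 9256 CPM in cko_1, cko_2 and cko_3. The cko libraries thus lay between the wt libraries, closer to wt_3. Gene by gene, the cko mean fell between wt_1 and wt_3 in 38 subunits (48.1%, beside 27.5% of all genes). In 58 subunits every cko library was above wt_1 (73.4%, beside 37.3% of all genes), and in 40 every cko library was below wt_3 (50.6%, beside 36.5%).

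Which wt library is kept decides how many subunits pass the test. Without wt_3, 31 of 80 subunits were called higher (38.8%, beside 10.3% of all genes) and 1 lower (1.25%, beside 1760 of 17526 genes), with a median log2 fold change of 0.24. Without wt_1, 1 of 81 was called higher (1.23%, beside 9.74%) and 10 lower (12.3%, beside 11.9%), with a median of -0.09. In these fits the single wt library is assumed to vary like the cko libraries. Ndufa4 was called higher and Ndufv3 lower in both of them. By complex, the fit without wt_3 called 13, 0, 4, 6 and 8 subunits higher in complexes I to V, and the fit without wt_1 called 3, 2, 3, 1 and 1 lower. The 10 lower genes were Atp5g1, Cox6b2, Cyc1, Ndufs1, Ndufv1, Ndufv3, Sdha, Sdhb, Uqcrfs1 and Uqcrq.

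**Figure D3:**
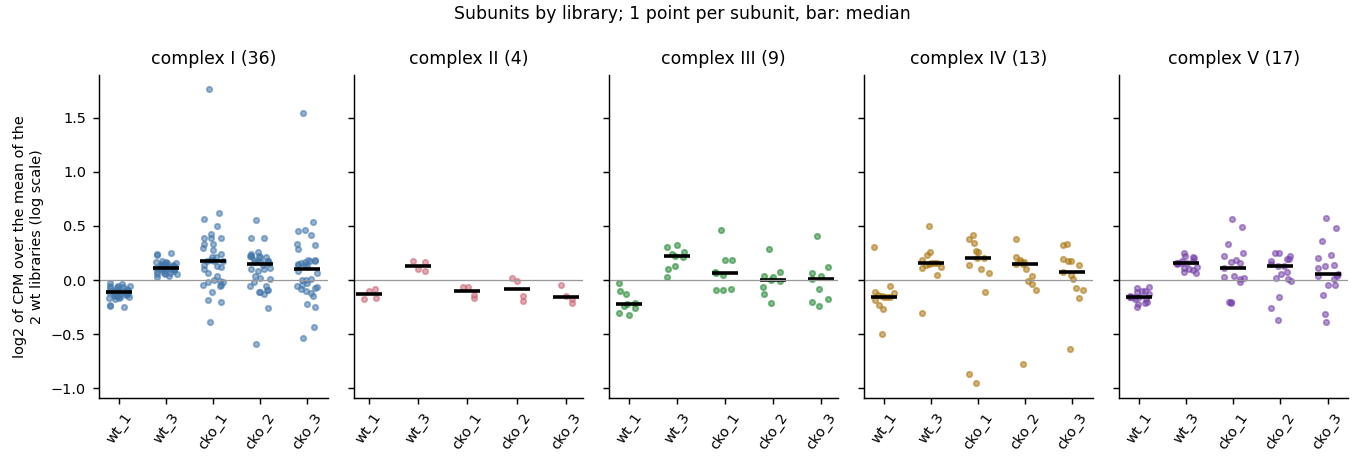
Log2 of each subunit's CPM over the mean log2 CPM of the 2 wt libraries, by library and complex (1 point per tested subunit, bars are medians, n = 79 subunits). In each complex the wt_1 median lies below 0 and the wt_3 median above it, and the cko medians fall between them or near wt_3, except in complex II, where they lie near wt_1.

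The subunits encoded in the mitochondrial genome went the other way between the wt libraries. Of 13, only mt-Co2 was higher in wt_3 than in wt_1, and the median log2 difference was -0.26. The levels of these 13 genes were very uneven. Over the libraries, mt-Co1 read 11340 to 13470 CPM, mt-Co2 66.5 to 256.4 CPM and mt-Atp8 only 0.48 to 1.01 CPM. Near copies of these 13 genes were not searched for, so how completely each was counted is not known. Their summed level was 27480 and 24040 CPM in wt, and 29670, 24640 and 23890 CPM in cko, so the groups overlapped. mt-Nd1, a core subunit of complex I, read 2180 and 1900 CPM in wt and 3218, 2694 and 2589 CPM in cko, and rose (log2 fold change 0.47, SE 0.12, edgeR adjusted p = 0.0381). No other mitochondrially encoded subunit was called, so 1 of 13 was higher (7.69%, beside 7.86% of all genes) and none lower (beside 8.57%). mt-Nd6 (-0.35, SE 0.11, adjusted p = 0.0706) and mt-Nd5 (-0.26, SE 0.12, adjusted p = 0.194) came next.

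Within complex I, the 7 core subunits, which carry the flavin and the iron-sulfur clusters, and the 29 tested accessory subunits had different medians. The core median was -0.05 with 2 of 7 values above 0 (Ndufs8 and Ndufv2), and the accessory median was 0.15 with 23 of 29 above 0. The difference between these medians was not tested. Ndufs1, the large iron-sulfur subunit, read 144.7 and 167.7 CPM in wt and 135.6, 129.9 and 131.4 CPM in cko, without overlap, at a log2 fold change of -0.24 (SE 0.084, edgeR adjusted p = 0.0966). Ndufv1, the flavoprotein that binds NADH, read 106.1 and 129.7 CPM in wt and 108.8, 108.8 and 109.5 CPM in cko. Its cko libraries all lay between wt_1 and wt_3. Of the accessory subunits, Ndufc1, Ndufb3 and Ndufa1 were nearest to the threshold, with log2 fold changes of 0.30, 0.37 and 0.46 and adjusted p of 0.0651, 0.0660 and 0.0800, and no overlap between groups in any of them.

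All 4 subunits of complex II had log2 fold changes below 0, from -0.18 to -0.04, and none was called by edgeR or DESeq2 or had an unadjusted p under 0.05. Complex II, succinate dehydrogenase, is also an enzyme of the TCA cycle. Sdha, its flavoprotein, read 357.9 and 404.0 CPM in wt and 339.6, 333.1 and 337.3 CPM in cko, with every cko library below both wt libraries (log2 fold change -0.18, SE 0.080, edgeR adjusted p = 0.169). Sdhb, its iron-sulfur subunit, read 117.5 and 147.6 CPM in wt and 119.4, 118.9 and 113.9 CPM in cko, so the groups overlapped at wt_1. Without wt_3, 3 of the 4 were above 0, and without wt_1 Sdha and Sdhb were called lower.

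Complex III showed a median of 0.01 over 9 subunits, and none was called by edgeR or DESeq2, with 1 (Uqcrb) at an unadjusted p under 0.05. Its 4 core and redox subunits were all below 0 and its 5 small subunits all above 0. Uqcrc1, a core protein, read 199.5 and 229.6 CPM in wt and 200.5, 195.2 and 185.4 CPM in cko. Uqcrfs1, the Rieske iron-sulfur protein, read 124.5 and 169.6 CPM in wt and 136.4, 125.8 and 123.4 CPM in cko. Cyc1, cytochrome c1, read 129.2 and 172.6 CPM in wt and 140.7, 148.1 and 132.4 CPM in cko. All cko values of Cyc1 lay inside the wt range, whereas cko_3 lay below it in Uqcrfs1 and cko_2 and cko_3 in Uqcrc1, and the groups overlapped in each of the 3 genes. In this complex wt_3 lay above wt_1 by a median of 0.45 on the log2 scale, more than any of its 9 genotype differences.

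In complex IV, cytochrome c oxidase, 8 of 13 tested subunits were above 0, the median was 0.12 and edgeR called none, with 2 higher and 1 lower at an unadjusted p under 0.05. With Ndufa4 counted here, 9 of 14 were above 0, the median was 0.12 and 1 was called higher, and complex I then had 24 of 35 above 0 with a median of 0.14. Cox4i1, the common form of the largest nuclear subunit, read 279.7 and 300.2 CPM in wt and 333.7, 297.8 and 320.0 CPM in cko. Cox5a read 55.6 and 69.0 CPM in wt and 57.3, 60.6 and 55.4 CPM in cko. Neither gene separated the groups. Cox6b2, the testis form of Cox6b1, had the lowest log2 fold change of all members, at -0.86 (SE 0.26, edgeR adjusted p = 0.0639), and DESeq2 called it lower (adjusted p = 0.00913). It read 21.8 and 43.5 CPM in wt and 15.9, 17.9 and 19.8 CPM in cko. The cko libraries were all below wt, and wt_3 stood far above the other 4 libraries. Without wt_3 the log2 fold change was -0.28 (edgeR adjusted p = 0.215), and without wt_1 it was -1.29 (adjusted p = 0.000383).

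The isoform pairs were compared per length, as CPM per kilobase of annotated exon. The common forms dominated: Cox4i1 stood at 197.6 on this scale and Cox4i2 at 0.48, Cox6a1 at 350.1 and Cox6a2 at 0.50, Cox8a at 281.6 and Cox8b at 0.33. Cox6a2 and Cox8b are muscle and heart forms, and both had 0 counts in wt_1. Cox7a2 and Cox7a2l stood at 75.8 and 123.3, and the muscle form Cox7a1 at 1.74. Cox7b, whose testis form was not analysed here, read 55.2 and 68.8 CPM in wt and 66.0, 61.2 and 58.7 CPM in cko, inside the wt range. Cox6b2 was the one tissue-restricted form above the floor in all libraries by a wide margin, at 21.5 beside 185.0 for Cox6b1. Its ratio to Cox6b1 per length was 0.131 and 0.225 in wt and 0.0682, 0.0862 and 0.0881 in cko, so that Cox6b1 (106.4 and 123.7 CPM in wt, 148.8, 132.8 and 143.3 in cko) and Cox6b2 leaned in opposite directions. Cox6b1 itself was not called (log2 fold change 0.30, SE 0.094, edgeR adjusted p = 0.0688). Of the rest of these forms, Cox6a1 ran from 189.1 to 280.7 CPM, Cox8a from 136.0 to 196.0 CPM, Cox7a2 from 59.7 to 76.9 CPM and Cox7a2l from 170.3 to 200.7 CPM, with wt_1 the lowest library in each.

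In complex V, ATP synthase, 12 of 17 members were above 0, the median was 0.14, and neither edgeR nor DESeq2 called any. At an unadjusted p under 0.05, 3 were higher and 0 lower. Atp5s, counted with the subunits by its symbol, is not a structural part of the complex. Atp5a1 and Atp5b form the catalytic head. Atp5a1 read 865 and 990 CPM in wt and 1030, 1057 and 1018 CPM in cko, all 3 above wt (log2 fold change 0.16, SE 0.087, edgeR adjusted p = 0.252). Atp5b, its catalytic partner, read 946 and 1272 CPM in wt and 1085, 1155 and 1102 CPM in cko, all between the wt values. The 4 small membrane subunits Atp5j2, Atp5k, Atp5l and Atp5mpl were all above 0, with a median of 0.34 and values of 0.17 to 0.46. Of these, 3 had an unadjusted p under 0.05 (beside 15.9% of all genes on the higher side). In all 4, wt_3 also lay above wt_1, by a median of 0.36 on the log2 scale, more than the genotype median. The c ring is made of 1 protein encoded by 3 genes. Per length, Atp5g2 (93.6) and Atp5g3 (94.9) were close and Atp5g1 far lower (8.94), although its annotated exons run to 4912 bases for 408 coding bases. With the length of 1 representative transcript they stood at 214.4, 286.4 and 9.31, so the order of Atp5g1 held and the closeness of the other two did not. Atp5g1 read 40.5 and 57.4 CPM in wt and 41.5, 43.2 and 36.9 CPM in cko. Atp5g2 read 132.5 and 162.7 CPM in wt and 171.8, 166.2 and 150.5 CPM in cko, and Atp5g3 172.8 and 215.9 CPM in wt and 209.2, 214.6 and 222.8 CPM in cko. The groups overlapped in all 3 genes.

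Levels per length spread widely within a complex. In complex I, Ndufc2 was highest (195.0 CPM per kilobase) and Ndufb2 lowest (2.17), the latter with 5628 bases of annotated exon for 315 coding bases and an overlapping gene on the same strand. In complex II the range was narrow, from 53.3 (Sdhc) to 85.9 (Sdha). In complex III it ran from 29.1 (Uqcrb) to 99.7 (Uqcrfs1), in complex IV from 1.74 (Cox7a1) to 350.1 (Cox6a1), and in complex V from 4.55 (Atp5s, coupling factor B) to 316.4 (Atp5a1). With the length of 1 representative transcript in place of all exons, Uqcrh and Uqcrq took the highest and lowest place in complex III and Atp5b the highest in complex V. By library, Ndufc2 read 144.6 and 157.8 CPM in wt and 155.4, 137.9 and 139.3 CPM in cko, and Ndufb2 12.1 and 14.1 CPM in wt and 13.0, 12.3 and 9.65 CPM in cko. Sdhc read 166.3 and 191.3 CPM in wt and 170.1, 176.8 and 160.9 CPM in cko. None of the 3 separated the groups, whereas Uqcrb did (18.1 and 25.3 CPM in wt, 29.5, 26.1 and 28.4 CPM in cko), as did Atp5s (9.87 and 11.0 CPM in wt, 9.06, 8.06 and 8.36 CPM in cko), and neither was called (edgeR adjusted p = 0.145 and 0.215).

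Subunits with short coding sequences lay higher in cko than those with long ones. Over the 79 subunits, the log2 fold change and the log2 coding length had Spearman's rho of -0.486 and Pearson's r of -0.352, as a description across genes, which share the 5 libraries and are not independent. Over 13454 tested coding genes the values were -0.049 and -0.031. The relation was not particular to the subunits, since rho and r were -0.438 and -0.461 over 76 mitochondrial ribosomal proteins and -0.455 and -0.358 over 80 cytosolic ones. The median was 0.13 in the 58 subunits with up to 600 coding bases, of which 43 were above 0, and the 10 with 1000 to 2000 coding bases had a median of -0.07, with 3 above 0. Among all coding genes of up to 600 coding bases (1720 genes) the median was 0.09, and 61.0% were above 0. The core subunits of complex I are long (median 789 coding bases) and the accessory ones short (393), so role and length cannot be told apart here. The same held for complexes I to III together, where 2 of 13 core and catalytic subunits and 28 of 36 others were above 0.

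**Figure D4:**
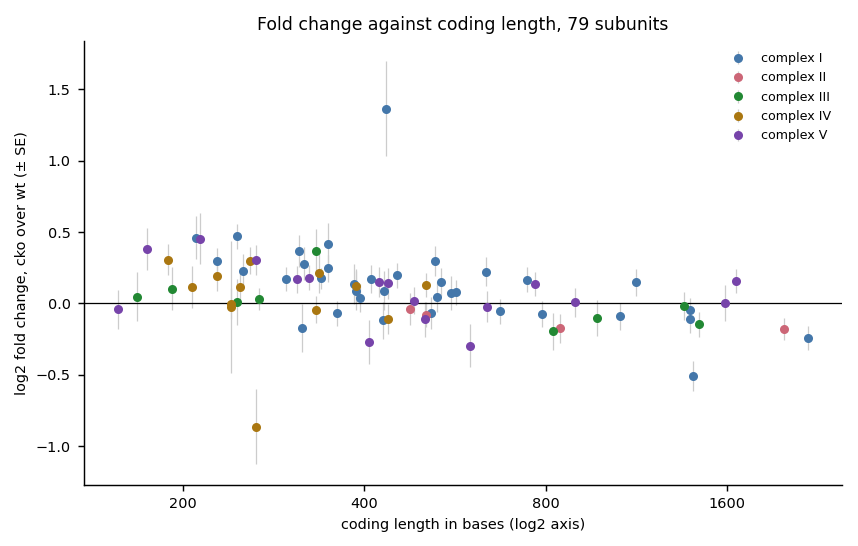
Log2 fold change of cko over wt against coding length for the 79 tested subunits, coloured by complex, with standard errors as bars. Values lean above 0 at short coding lengths and below 0 at long ones, with Ndufa12 (1.37) and Cox6b2 (-0.86) apart from the rest.

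The promoters of these genes are known for a few shared motifs, among them the sites of NRF1, of the ETS factor GABP and of YY1, all regulators of nuclear genes for mitochondrial proteins. RefSeq promoter windows (250 bases before to 50 bases after the start, GRCm38.p6) matched 67 of the 83 members. The NRF1 core GCATGCGC, searched on both strands, was in 10 of them (14.93%, beside 3.05% of all 27025 genes with a window and 5.65% of other tested genes). A gene with several windows counted once, if any of them matched. The YY1 core AAGATGGC was also in 10 (14.93%, beside 3.19% and 4.92%), and the ETS core CCGGAAG in 16 (23.88%, beside 9.93% and 18.77%). The SP1 core GGGCGGG was in 23 (34.33%, beside 27.90% and 51.01%). At least 1 of the NRF1, ETS and YY1 letters was in 30 members (44.78%, beside 26.62% of other tested genes). A match is a string of letters and not a shown binding site. The 3 windows below carry NRF1, ETS or YY1 matches, in capitals, and show where each sits. The SP1 letters also present in the Sdhb and Cox6a1 windows are not marked.
Sdhb (chr4:140961021-140961320, plus strand, NRF1 then ETS): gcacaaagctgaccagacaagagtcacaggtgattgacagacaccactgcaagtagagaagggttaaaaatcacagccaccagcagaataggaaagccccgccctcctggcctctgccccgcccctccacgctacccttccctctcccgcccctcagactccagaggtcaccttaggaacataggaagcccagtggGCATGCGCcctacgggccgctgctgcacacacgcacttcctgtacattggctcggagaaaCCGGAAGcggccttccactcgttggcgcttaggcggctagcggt
Cox6a1 (chr5:115348909-115349208, minus strand, NRF1 read on both strands, then ETS on the other strand): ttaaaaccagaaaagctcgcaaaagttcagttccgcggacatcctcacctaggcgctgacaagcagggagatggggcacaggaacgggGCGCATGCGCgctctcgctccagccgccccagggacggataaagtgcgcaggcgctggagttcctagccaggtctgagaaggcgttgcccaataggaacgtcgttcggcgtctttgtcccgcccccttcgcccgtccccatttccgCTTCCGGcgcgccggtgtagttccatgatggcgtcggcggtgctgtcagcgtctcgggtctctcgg
Ndufs6 (chr13:73328433-73328732, minus strand, YY1 just past the start): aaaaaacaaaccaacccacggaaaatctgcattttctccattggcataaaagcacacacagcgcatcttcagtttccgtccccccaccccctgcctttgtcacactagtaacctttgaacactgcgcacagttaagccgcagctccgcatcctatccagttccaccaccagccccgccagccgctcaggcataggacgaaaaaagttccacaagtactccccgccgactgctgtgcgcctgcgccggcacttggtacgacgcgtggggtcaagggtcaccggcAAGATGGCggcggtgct

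The Sdhb match to NRF1 lies at -54 to -47 from the start and its ETS match at 7 to 13. In Cox6a1 they lie at -162 to -153 and at -16 to -10, and the YY1 match of Ndufs6 at 34 to 41. Of these 3 genes none was called: Sdhb had a log2 fold change of -0.17, Cox6a1 of 0.21 and Ndufs6 of 0.41 (edgeR adjusted p = 0.108). The median log2 change between genotypes was 0.04 in members with the NRF1 letters and 0.09 in those without. For YY1 these medians were 0.20 and 0.04, for ETS 0.13 and 0.07, and for SP1 0.04 and 0.11.

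The genes that build and feed the chain were read from lists of their own. For all genes tested, the shares called were 7.86% higher and 8.57% lower. Of 47 tested assembly factors, 1 was higher (2.13%) and 3 were lower (6.38%), with a median of -0.05. The higher one was Coa3, for complex IV (37.0 and 41.5 CPM in wt, 48.5, 49.6 and 50.0 in cko, log2 fold change 0.33). The lower ones with the smallest p were Ttc19, for complex III (-0.34, SE 0.087, edgeR adjusted p = 0.0378), and Ecsit, for complex I (-0.46, SE 0.13, adjusted p = 0.0466). Of 16 genes for electron carriers and electron entry, 15 were below 0, with 1 called lower (Gpd2, 6.25%) and 1 higher (Coq7, 6.25%). Gpd2, the glycerol-3-phosphate dehydrogenase that feeds ubiquinone, read 114.5 and 138.2 CPM in wt and 92.4, 81.2 and 78.1 CPM in cko (log2 fold change -0.59, SE 0.11, edgeR adjusted p = 0.0135). Coq7, a hydroxylase of ubiquinone synthesis, read 20.8 and 19.2 CPM in wt and 28.0, 28.6 and 30.4 CPM in cko (0.54, SE 0.10, adjusted p = 0.0150). Next by p was Etfa, which was not called (-0.26, adjusted p = 0.121).

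Of 14 TCA cycle enzymes, 2 were lower (14.3%, beside 8.57% of all genes) and none higher (beside 7.86%) by edgeR. At an unadjusted p under 0.05 none was on the higher side (beside 15.9% of all genes) and 6 were on the lower side (beside 16.7%). The median was -0.12. The lower ones were Suclg2 (66.0 and 62.5 CPM in wt, 53.2, 46.7 and 49.3 in cko, log2 fold change -0.37, SE 0.086, edgeR adjusted p = 0.0282) and Dlst (-0.34, SE 0.090, adjusted p = 0.0428). Of 22 regulators of mitochondrial biogenesis, 2 coactivators were lower (9.09%, beside 8.57% of all genes) and none higher (beside 7.86%). Again none was on the higher side at an unadjusted p under 0.05, and 3 were on the lower side. Of the 22, 14 were above 0. Ppargc1a, which encodes the coactivator PGC-1 alpha, read 56.9 and 76.0 CPM in wt and 47.1, 35.4 and 36.1 CPM in cko (-0.75, SE 0.16, edgeR adjusted p = 0.0226). Its relative Pprc1 read 60.0 and 64.5 CPM in wt and 47.0, 53.0 and 49.1 CPM in cko (-0.32, SE 0.086, adjusted p = 0.0424). Polg2, a subunit of the mitochondrial DNA polymerase, was not called (-0.50, adjusted p = 0.0968).

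Among 76 mitochondrial ribosomal proteins, 3 were higher (3.95%, beside 7.86% of all genes) and none lower (beside 8.57%). The higher ones were Mrpl48, Mrpl11 and Mrpl21, with log2 fold changes of 0.34 to 0.39. The list had a median of 0.06 and 1 gene on the lower side at an unadjusted p under 0.05. Among 80 tested cytosolic ribosomal proteins, 4 were higher (5.00%) and none lower (1 at an unadjusted p under 0.05). First by p were Rps12 (0.36), Rps29 (0.61) and Rps28 (0.63). In this list 74 were above 0 and the median was 0.14. Both lists shared the difference between the wt libraries, with wt_3 above wt_1 in 63 of 76 and 77 of 80 genes, and median log2 differences of 0.16 and 0.26. wt_3 was also higher in 40 of 47 assembly factors (median 0.19) and 12 of 14 TCA cycle enzymes (0.22). For electron carriers and entry it was higher in 11 of 16 (0.13), and for biogenesis regulators in 15 of 22 (0.08). Over all genes the share was 49.4%.

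**Figure D5:**
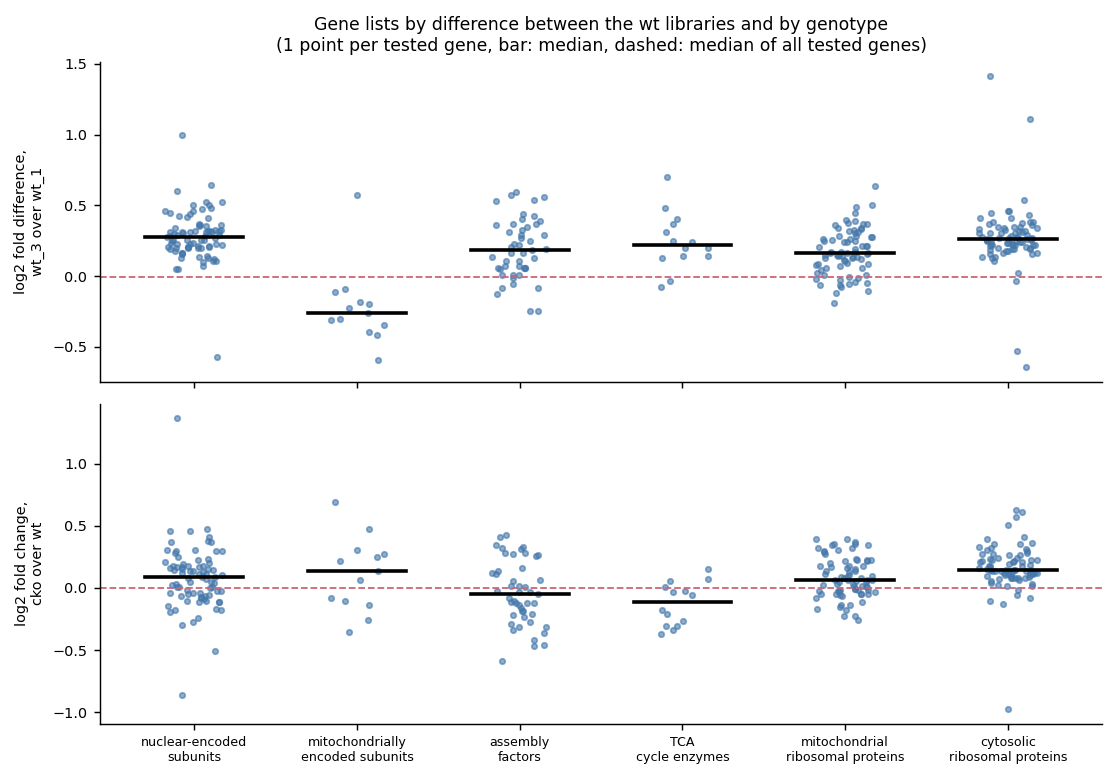
For 6 gene lists, the log2 difference of wt_3 over wt_1 (CPM + 0.05, top) and the log2 fold change of cko over wt (bottom), with 1 point per tested gene, list medians as bars and the median of all tested genes dashed. Between the wt libraries the nuclear-encoded subunits (median 0.28) and the mitochondrially encoded ones (-0.26) lie on opposite sides of 0, and by genotype their medians are 0.09 and 0.13.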

How the data were processed

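RNA was sequenced from cultured NSCs of wt and cko embryos. The authors deposited 1 table of raw read counts per Ensembl gene ID. By the study's methods, reads were checked with FastQC, filtered with NGSQC and aligned to mm10 with HISAT2, and the labels describe libraries from the SMARTER mRNA-Seq kit. The submitters' processing notes name GRCm39, so the build is uncertain. The counter, annotation and strand setting are not given in the sources used here, so reads of overlapping genes (32 members overlap another counted gene) and of near-identical copies cannot be told apart.

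Symbols and positions came from GENCODE M21 (GRCm38), which named 31836 IDs and left 657 without a symbol. Counts were tested in edgeR 4.0.16 under R 4.3.3 (filterByExpr by genotype, TMM, quasi-likelihood F test of genotype, two-sided), with Benjamini-Hochberg adjustment over all 16710 genes tested and calls at an adjusted p under 0.05. Differences between the wt libraries used log2(CPM + 0.05). Near copies were searched with blastn 2.17.0. Alternatives were DESeq2 1.42.0, other size factors and filters, leaving out each library, a replicate block, all 6 columns, the study's threshold and, chosen after seeing the data, adding pseudogene counts to their member. The test scripts were tested on simulated data. The floor of 3 counts covers counting error only, and standard errors are those of the edgeR fit.

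The members and lists were chosen with earlier results of these data known, and no set test was made. Named with their values were the called members, 12 catalytic or core subunits, the isoform groups, the highest and lowest member per length in each complex, the members removed by the filter and the 3 genes with the smallest p in each list, except for items that are not reported here. Ndufc1, Ndufb3, Ndufa1, Ndufs6 and Gm15920 were named after their values were seen. Matches to the microRNA's seed were not analysed here.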

Additional observations from a re-analysis of the deposited data

How the results depend on the processing

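The members' median log2 fold change was 0.09 and ranged from 0.07 to 0.11 under the alternatives that kept the 5 libraries or all 6 columns, and from -0.09 to 0.24 when 1 library was left out. The median was below 0 only without wt_1. The calls moved more, from 2 higher and 1 lower. DESeq2 called 2 members higher and 2 lower (Cox6b2 was added), beside 1488 and 1581 over all genes. With no filter on low counts, 10 of 83 members were higher and 2 lower, beside 1838 and 2237 of all 30524 genes. With all 6 columns, 16 of 79 members were higher and 3 lower, beside 2865 and 2794 of all 16322 genes. The study's threshold left 1 member higher and 0 lower. The cause of these differences was not tested. Adding pseudogene counts left 1 higher and 1 lower. Leaving out each library in turn gave 0 to 31 higher and 0 to 10 lower. With the replicate block there were 4 higher and 2 lower (Atp5mpl, Ndufa1 and Cox6b2 were added), and 918 and 1065 over all genes. Only replicates 1 and 3 exist in both groups and their deviations correlated at r = 0.113 over 16710 genes, and the labels do not say what a number marks, so whether the numbers pair the samples is not known. Over all genes, 1314 higher and 1432 lower calls became 2865 and 2794 with all 6 columns and 399 and 696 with the study's threshold. They ranged from 317 to 1812 and from 416 to 2062 with 1 library left out, and without a filter 2237 were lower. Without cko_3 edgeR called no member, beside 336 higher and 457 lower of all 16306 genes. At an unadjusted p under 0.05 this fit had 3 members higher (3.80%) and 2 lower (2.53%), beside 1794 and 2098 of all genes. At this depth 4 members were too low to test, and Cox7a1, with 9 to 28 counts a library, had the largest standard error (0.46).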

Other observations

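The genes around Ndufa12 on chromosome 10 were looked up after its values were seen. None of those tested had a log2 fold change as high as the 1.37 of Ndufa12. Nr2c1, which ends 1509 bases before it, read 22.2 and 22.8 CPM in wt and 26.0, 23.2 and 25.4 CPM in cko (log2 fold change 0.15, SE 0.10, edgeR adjusted p = 0.375), and Tmcc3 on the other side was at 0.05 on the log2 scale (adjusted p = 0.704). Farther out, Ntn4, a netrin, rose (0.47, SE 0.12, edgeR adjusted p = 0.0400), as did the unnamed gene model Gm3571 (0.94, SE 0.16, adjusted p = 0.00993). With the counts of its copy added, Ndufa12 was at 0.48, close to Ntn4 and below Gm3571. Whether the region changed as a whole was not tested.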
